A study of Drosophila melanogaster with 12 samples.

Results

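mir-276a and mir-276b are paralogous miRNA hairpins of Drosophila melanogaster. Over 12 libraries of AGO1 immunoprecipitates from fly heads, miR-276a-3p, the 3p arm of mir-276a, had the most reads of all miRNAs. The rows described here were chosen by name, as every row whose hairpin was mir-276a or mir-276b, which gave 2 of 238 hairpins and 4 of 408 rows. These 4 rows were the 5p and 3p arms of each hairpin. The rows of miR-276a-5p and miR-276b-5p held the same value in 12 of 12 libraries, so their reads cannot be assigned to 1 hairpin and they are described together as the shared 5p arm. This left 3 distinct rows: miR-276a-3p, miR-276b-3p and the shared 5p arm.

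A miRNA hairpin is cut into a short duplex whose strands are called the 5p and 3p arms. An Argonaute protein, mostly AGO1 for Drosophila miRNAs, keeps 1 strand as the guide and uses it to find and repress mRNAs with matching sites in their 3′ UTRs, while the other strand is usually lost. In Drosophila, miR-276a acts on the clock gene timeless (tim) in clock neurons and on a dopamine receptor in olfactory memory, and in locusts miR-276 has a role in the synchrony of egg hatching.

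The libraries were small RNA sequencing of anti-AGO1 immunoprecipitates from heads of Canton-S, a wild-type laboratory strain. Flies were kept in light and dark cycles at a temperature of 18°C, of 25°C or of 29°C. Heads were taken at ZT3, ZT9, ZT15 and ZT21, where ZT counts hours from lights on. Each combination of temperature and time point had 1 library, 12 in all. The 4 time points served as the replicates of a temperature (n = 4). The age and sex of the flies are not given in the sources used here, and all groups shared the strain, the tissue and the antibody. The question behind the comparison was whether miRNAs that can act on tim differ with temperature.

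Library depth ran from 4423511 miRNA reads (29°C, ZT21) to 16840372 (25°C, ZT15). The deposited value of a miRNA was its reads divided by 1 size factor per library, so that values are reads at a common depth, and every "value" below is on that scale. Neuronal miR-124-3p was present at 141 to 232 at 18°C, 114 to 268 at 25°C and 86.0 to 145 at 29°C. Muscle miR-1-3p was present at 178464 to 472985 at 18°C, 236149 to 653404 at 25°C and 259882 to 509309 at 29°C. The 11 testis rows (mir-972 to mir-979) summed to 31.7 to 60.8, and the 12 early embryo rows (mir-309, mir-3, mir-4, mir-5 and the mir-6 hairpins) to 604 to 4959. The muscle and embryo markers varied within each temperature, and their part in the results below was not tested. Fewer cells that make a miRNA, less of it per cell and less of it held by AGO1 cannot be told apart in immunoprecipitates of whole heads.

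Both hairpins lie on chromosome 3L, on the plus strand (build BDGP6.54). mir-276b (FBgn0262381) is 99 bases long at 3L:10319785-10319883, with its 5p arm at 10319807-10319829 and its 3p arm at 10319846-10319867. It lies within an exon of the long noncoding RNA gene lncRNA:CR46004 (3L:10306678-10320600) in 2 of 2 annotated transcripts. mir-276a (FBgn0266076) is 98 bases long at 3L:10365228-10365325, with its 5p arm at 10365243-10365265 and its 3p arm at 10365281-10365302. It lies within an exon of lncRNA:CR46006 (3L:10323501-10367450) in 5 of 5 transcripts. The hairpins are 45344 bases apart and belong to different annotated host genes.

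miR-276a-3p, the guide strand of mir-276a, held 25.7% of all miRNA reads over the 12 libraries, ahead of miR-14-3p (18.8%), a miRNA known for limiting cell death and for fat metabolism. miR-8-3p (8.05%), the fly member of the miR-200 family, bantam-3p (5.99%), which promotes growth, and miR-184-3p (5.23%) followed. miR-276b-3p was the seventh miRNA by reads with 3.47%. Reads of different miRNAs also depend on how well each is ligated and amplified, so this order is that of reads.

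miR-276a-3p ranked first in 11 of 12 libraries. At 18°C its values were 2794249 at ZT3, 2690622 at ZT9, 2943566 at ZT15 and 2022731 at ZT21. At 25°C they were 3142536, 2769899, 2738236 and 2187368 in the same order of time points, and at 29°C they were 2996374, 2976137, 3135445 and 3153354. The 4 libraries at 29°C lay close together and all above the 4 at 18°C, while those at 18°C and 25°C overlapped, and the lowest value at each of these temperatures was the ZT21 library. The means were 2612792 ± 406844 at 18°C, 2709510 ± 393537 at 25°C and 3065327 ± 91968 at 29°C (SD, n = 4). The coefficient of variation was thus 15.6% at 18°C, 14.5% at 25°C and 3.00% at 29°C. The exception to first rank was the 18°C ZT21 library, where miR-14-3p had 2849148 reads and miR-276a-3p 2848283. There miR-276a-3p held 49.99% of the reads of this pair (95% Wilson interval 49.95 to 50.03%, counting error only), so the order of the pair was not resolved. The ratio of miR-276a-3p to miR-14-3p was 1.00 in that library and reached 1.76 at 25°C and ZT3.

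miR-276b-3p, the guide strand of mir-276b, ranked between 6 and 9. At 18°C its values were 341522 at ZT3, 324552 at ZT9, 352999 at ZT15 and 238195 at ZT21. At 25°C they were 451407, 410418, 394260 and 336282, and at 29°C 432367, 406820, 399801 and 427747. The 18°C libraries were all below the 29°C libraries, and 18°C overlapped with 25°C only in that the 18°C ZT3 and ZT15 libraries were above the 25°C ZT21 library (336282). The means were 314317 ± 52076 at 18°C, 398092 ± 47713 at 25°C and 416684 ± 15819 at 29°C (SD, n = 4).

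**Figure D1:**
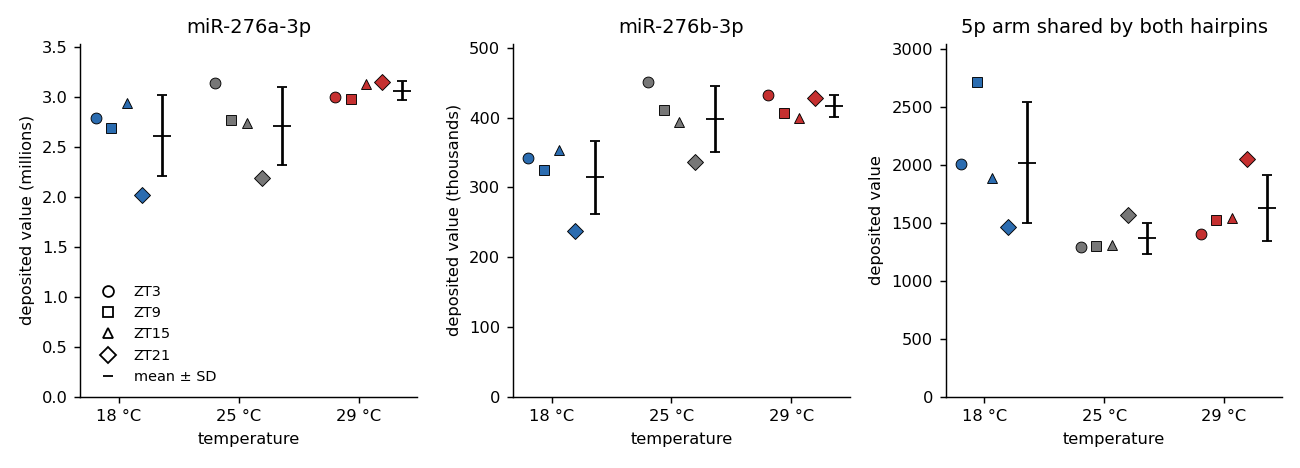
Deposited values (reads divided by the size factor of the library) of miR-276a-3p (left, axis in 1e6), miR-276b-3p (middle, axis in 1e3) and the shared 5p arm (right), by temperature. Each point is 1 library with its time point as the symbol, and bars are the mean ± SD of 4 libraries. The 3p arms at 18°C lie below those at 29°C in every library, and the 18°C ZT21 library is the lowest point in all of the 3p data.

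Between 18°C and 29°C, miR-276b-3p was lower at 18°C by 1.34-fold (log2 fold change -0.42, SE 0.13, 95% interval -0.71 to -0.14, limma with Benjamini-Hochberg adjustment over 244 miRNAs, adjusted p 0.0191). The direction was the same at 4 of 4 time points. For miR-276a-3p the log2 fold change was -0.24 (SE 0.13, 95% interval -0.53 to 0.04, limma adjusted p 0.160), also in the same direction at 4 of 4 time points, and this did not pass. It was -0.13 without the 18°C ZT21 library. The shared 5p arm had a log2 fold change of 0.29 (95% interval -0.08 to 0.66, limma adjusted p 0.200), with 3 of 4 time points higher at 18°C, and of 0.13 without the 18°C ZT9 library. Thus 1 of the 3 distinct rows passed at adjusted p under 0.05, where 39.8% of the 244 tested miRNAs did (97, of which 46 were lower at 18°C). None of the 3 also exceeded a log2 fold change of 1, a limit that 16% of the tested miRNAs passed. By edgeR and by DESeq2 on the recovered reads the same row, miR-276b-3p, was the 1 that passed, and in limma 1 of the 3 had an unadjusted p under 0.05. The median log2 fold change of all tested miRNAs was 0.03. In the same comparison neuronal miR-124-3p, a row of few reads, was higher at 18°C (log2 fold change 0.72, limma adjusted p 0.0390). Its part in these values was not tested. Without the 29°C ZT3 library the limma adjusted p of miR-276b-3p was 0.0531 (log2 fold change -0.40), so the call depended on that library. For both 3p arms the 18°C and 29°C libraries did not overlap, as for 38.9% of the tested miRNAs.

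**Figure D2:**
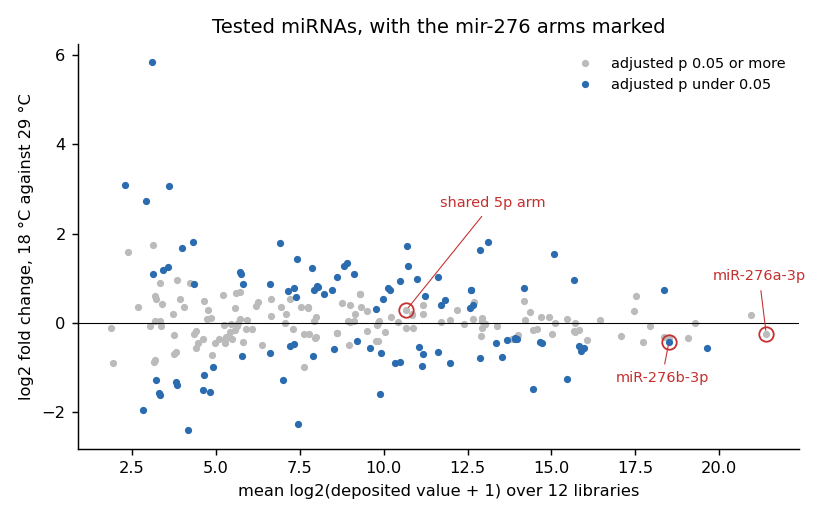
Log2 fold change between 18°C and 29°C (y axis) against the mean log2(value + 1) over 12 libraries (x axis) for the 244 tested miRNAs. Blue points have a limma adjusted p under 0.05 and grey points do not, and the mir-276 arms are circled. The 3p arms lie at the abundant end, slightly below 0, and the shared 5p arm lies slightly above 0.

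Between 18°C and 25°C, the shared 5p arm was higher at 18°C by 1.45-fold (log2 fold change 0.53, SE 0.17, 95% interval 0.16 to 0.90, limma adjusted p 0.0412), and the 2 groups overlapped. It was higher at 3 of 4 time points. The call was lost with time point as a block (limma adjusted p 0.0659), with no filter on low reads (0.0624) and with TMM scaling (0.0596). For miR-276b-3p the log2 fold change was -0.35 (95% interval -0.63 to -0.07, limma adjusted p 0.0763), lower at 18°C at 4 of 4 time points, which did not pass. For miR-276a-3p it was -0.05 (95% interval -0.34 to 0.23, limma adjusted p 0.821). This log2 fold change was 0.063 without the 18°C ZT21 library and 0.020 without the 25°C ZT3 library. So 1 of the 3 distinct rows passed, where 19.7% of the tested miRNAs did (48, of which 27 were higher at 18°C). None passed with a log2 fold change over 1, as 4.1% of the tested miRNAs did, and in limma 2 of the 3 had an unadjusted p under 0.05. For none of the 3 were the libraries of these temperatures without overlap, as they were for 24.6% of the tested miRNAs. The call of the shared 5p arm was lost when any 1 of 8 libraries was left out (ZT3, ZT9 or ZT15 at 18°C or 25°C, and ZT9 or ZT15 at 29°C), with limma adjusted p up to 0.126 (log2 fold change 0.38) without the 18°C ZT9 library. miR-276b-3p passed without the 25°C ZT21 library (log2 fold change -0.43, limma adjusted p 0.0387), with scaling by the library total (limma adjusted p 0.0418) and with TMM scaling (0.0292), and its log2 fold change was -0.22 without the 18°C ZT21 library.

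Between 29°C and 25°C none of the 3 distinct rows passed, where 11.9% of the tested miRNAs did by limma, and none had an unadjusted p under 0.05 by limma, edgeR or DESeq2. None passed with a log2 fold change over 1, as 3.28% of the tested miRNAs did, and the libraries overlapped for all 3, where those of 16.8% of the tested miRNAs did not. The log2 fold changes were 0.19 for miR-276a-3p (95% interval -0.10 to 0.48, limma adjusted p 0.444), 0.07 for miR-276b-3p (-0.21 to 0.36, limma adjusted p 0.798) and 0.24 for the shared 5p arm (-0.13 to 0.61, limma adjusted p 0.444). Without the 25°C ZT21 library the log2 fold change was -0.0054 for miR-276b-3p and 0.09 for miR-276a-3p, and for the shared 5p arm it was 0.13 once the 29°C ZT21 library was left out. The 3 comparisons share their libraries, 4 to a temperature, and are not independent.

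The arms of both hairpins together held between 23.8% and 31.8% of the reads of a library. This share is taken of all miRNA reads of the library, so by construction it differs from the scaled values above. At 18°C the share was 29.91% at ZT3, 28.53% at ZT9, 30.03% at ZT15 and 23.84% at ZT21. At 25°C it was 30.57, 29.72, 28.36 and 26.59%, and at 29°C 30.74, 31.29, 31.64 and 31.75%. All 4 libraries at 29°C were above all those of the other temperatures, and the 18°C ZT21 library was the lowest. The means were 28.1 ± 2.91% at 18°C, 28.8 ± 1.74% at 25°C and 31.4 ± 0.453% at 29°C (SD, n = 4). By an exact two-sided permutation test the difference of 18°C from 29°C was -3.28 points (p 0.0286, adjusted over 9 comparisons 0.0514), and -1.87 points without the 18°C ZT21 library. The difference of 29°C from 25°C was 2.55 points (exact p 0.0286, adjusted 0.0514). That of 18°C from 25°C was -0.731 points (exact p 0.714, adjusted 0.743), and 0.682 points without the 18°C ZT21 library. The smallest p that 4 against 4 libraries allow is 0.0286, so the first and second differences had the smallest p possible and still missed 0.05 after adjustment. Without the 3 ZT21 libraries the difference between 18°C and 29°C was -1.73 points and that between 29°C and 25°C 1.67 points, so that both were smaller without these libraries. On the scaled values none of the 3 distinct rows passed between 29°C and 25°C by limma, and their libraries overlapped.

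**Figure D3:**
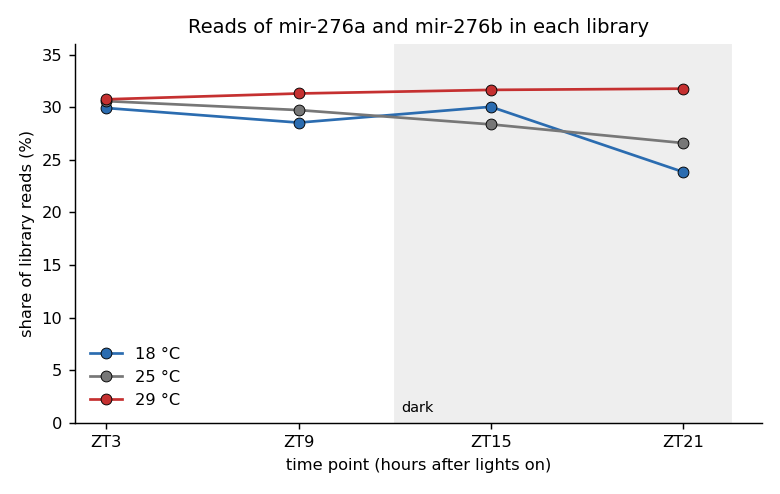
Share of library reads (%) from all arms of mir-276a and mir-276b against time point, 1 line per temperature and 1 library per point. The dark hours are shaded. The 29°C line stays between 30.7% and 31.8%, and the 18°C and 25°C lines are lowest at ZT21.

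miR-276b-3p was the smaller of the 3p arms in every library and had its smallest part at 18°C. Of the summed 3p reads, miR-276b-3p made up 10.89% at ZT3, 10.76% at ZT9, 10.71% at ZT15 and 10.54% at ZT21 at 18°C. At 25°C it made up 12.56, 12.90, 12.59 and 13.33%, and at 29°C 12.61, 12.03, 11.31 and 11.94%. Every 18°C library was below every library of the other temperatures, including the 18°C ZT21 library in which both 3p arms were low. The 95% Wilson intervals were at most 0.107 points wide (counting error only), so counting error is small beside these differences. The share spread most at 29°C, where it ran from 11.31 to 12.61%. The means were 10.7 ± 0.148% at 18°C, 12.8 ± 0.357% at 25°C and 11.97 ± 0.532% at 29°C (SD, n = 4), and miR-276a-3p exceeded miR-276b-3p on average 8.33-fold, 6.79-fold and 7.37-fold. In log2 of miR-276b-3p over miR-276a-3p, 18°C differed from 29°C by -0.18 (means -3.06 and -2.88, exact two-sided permutation test p 0.0286, adjusted over 9 comparisons 0.0514). It differed from 25°C by -0.29 (mean at 25°C -2.76, exact p 0.0286, adjusted 0.0514), and 29°C differed from 25°C by -0.12 (exact p 0.0857, adjusted 0.110). Both differences of 18°C had the same direction at 4 of 4 time points and the smallest p that the design allows. As an alternative added after seeing the data, the libraries were scaled to miR-276a-3p and all miRNAs were fitted. The limma adjusted p of miR-276b-3p was then 0.350, 0.183 and 0.706 in the same order of comparisons. This scaling adds the variation of miR-276a-3p between libraries to every other row. Because limma draws the spread of each row toward that of other rows, these p-values do not measure the spread of the ratio alone.

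**Figure D4:**
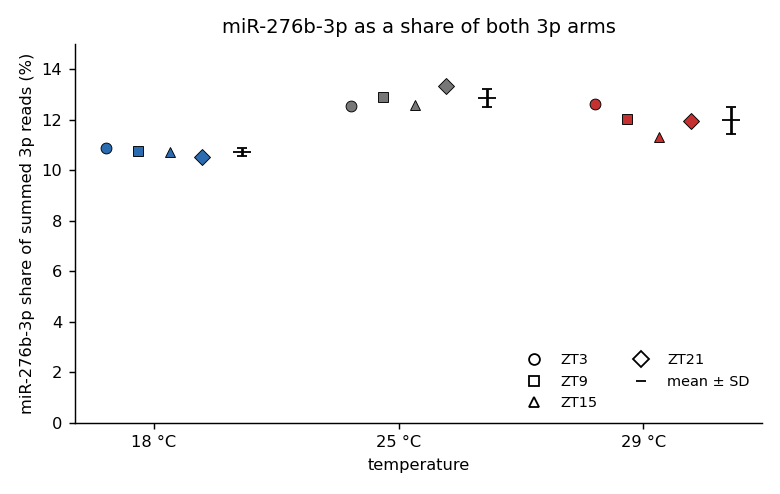
miR-276b-3p as a share (%) of the summed reads of miR-276a-3p and miR-276b-3p, by temperature. Each point is 1 library with a 95% Wilson interval that is smaller than the symbol, and bars are the mean ± SD of 4 libraries. The 18°C libraries lie between 10.5% and 10.9%, below all libraries at 25°C and 29°C.

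This ratio was compared with the same ratio in 8 other pairs of related mature miRNAs. Within a temperature the log2 ratio of miR-276b-3p to miR-276a-3p had a pooled SD of 0.05, the smallest of the 9 pairs, and the next was 0.08 for miR-31b-5p to miR-31a-5p. The pairs differ in depth, which enters the SD: the lowest read number in any library was 167681 for the mir-276 pair, 99 for the miR-31 pair and 38 for the miR-92 pair. Libraries at 18°C were apart from those at 29°C and from those at 25°C in 2 of the 9 pairs, miR-276b-3p to miR-276a-3p and miR-92b-3p to miR-92a-3p. In the latter, 18°C minus 29°C was -1.09 on the log2 scale with a pooled SD of 0.34. How reads with a mismatch were divided between the similar 3p arms is not given in the sources used here, and its part in the ratio was not tested.

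The shared 5p arm, the less abundant arm of both hairpins in these AGO1 immunoprecipitates, had 803 to 2244 reads per library and ranked between 76 and 95. At 18°C its values were 2003 at ZT3, 2716 at ZT9, 1891 at ZT15 and 1465 at ZT21. At 25°C they were 1290, 1304, 1308 and 1566, and at 29°C 1402, 1528, 1545 and 2048. The highest value was at 18°C and ZT9, and ZT21 was the lowest library at 18°C and the highest at 25°C and at 29°C. The means were 2019 ± 520 at 18°C, 1367 ± 133 at 25°C and 1631 ± 286 at 29°C (SD, n = 4). Without the 3 ZT21 libraries, an alternative chosen after seeing the data, the log2 fold change between 18°C and 29°C was 0.55 (limma adjusted p 0.00627), against 0.29 with them and 0.13 (limma adjusted p 0.539) without the 18°C ZT9 library alone.

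The 5p arm was a small part of the mir-276 reads in every library. It made up 0.0638, 0.0900, 0.0573 and 0.0648% of them at ZT3, ZT9, ZT15 and ZT21 at 18°C. At 25°C it made up 0.0359, 0.0410, 0.0417 and 0.0620%, and at 29°C 0.0409, 0.0451, 0.0437 and 0.0572%. Every 18°C library was above every 29°C library, and the 25°C ZT21 library was the only library of the other temperatures to reach the range at 18°C. In log2 of 5p over summed 3p reads the means were -10.52 at 18°C, -11.14 at 25°C and -11.07 at 29°C. The difference of 18°C from 29°C was 0.55 (exact two-sided permutation test p 0.0286, adjusted 0.0514, 4 of 4 time points), and from 25°C 0.62 (exact p 0.0571, adjusted 0.0857, 4 of 4 time points). Between 29°C and 25°C it was 0.07 (exact p 0.743, adjusted 0.743), and -0.031 without the 25°C ZT3 library or -0.032 without the 29°C ZT21 library.

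**Figure D5:**
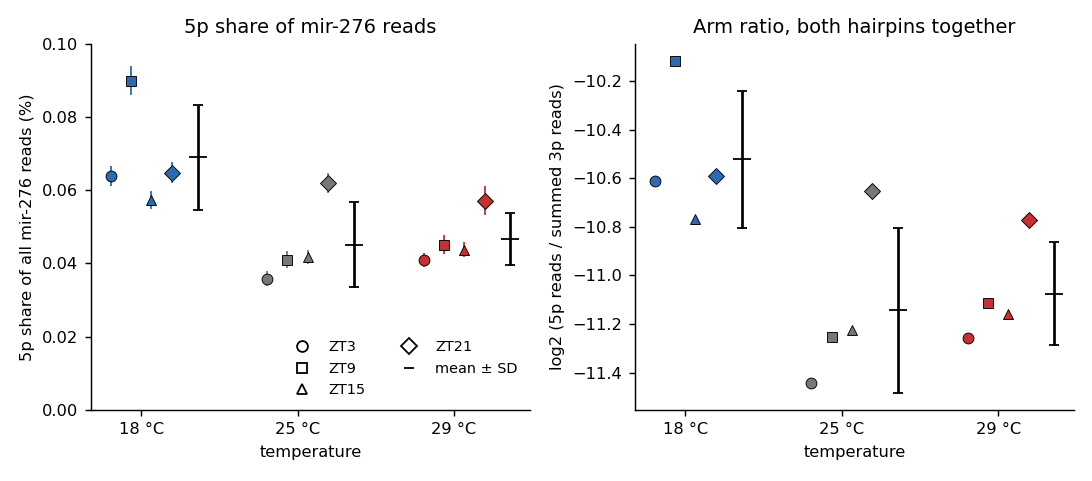
Left, the shared 5p arm as a share (%) of all mir-276 reads with 95% Wilson intervals. Right, log2 of 5p reads over summed 3p reads of both hairpins. Each point is 1 library, and bars are the mean ± SD of 4 libraries. The 18°C libraries lie above those at 29°C in both panels, but the intervals of 18°C ZT15 and 29°C ZT21 overlap.

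Fitted with the other hairpins, the log2 ratio of 5p to 3p reads was tested in the 89 hairpins whose arms both averaged 10 reads or more. Between 18°C and 29°C the ratio of mir-276b was higher at 18°C by 0.71 (SE 0.20, limma adjusted p 0.00956). That of mir-276a was higher by 0.53 (SE 0.20, limma adjusted p 0.0381). Both ratios, which share their 5p reads, thus passed, where 57.3% of the 89 hairpins did and 31.5% with a higher ratio at 18°C. Between 18°C and 25°C the ratio was higher at 18°C by 0.88 for mir-276b (limma adjusted p 0.0133) and by 0.59 for mir-276a (limma adjusted p 0.0451), where 27% of the hairpins passed and 15.7% with a higher ratio at 18°C. Between 29°C and 25°C the differences were 0.17 for mir-276b (limma adjusted p 0.659) and 0.05 for mir-276a (limma adjusted p 0.869), where 16.9% passed and 7.87% with a higher ratio at 29°C.

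The 2 ratios use the same 5p reads, so they are not 2 separate observations, and they differ only through the 3p arms. Each sets the 5p reads of both hairpins against 1 of the 3p arms, so neither is the arm ratio of 1 hairpin alone. That of mir-276b also holds the smaller part of miR-276b-3p among the 3p reads at 18°C. The call of mir-276b held without any 1 library (limma adjusted p 0.00420 to 0.0356 between 18°C and 29°C, and 0.00499 to 0.0387 between 18°C and 25°C). The calls of mir-276a did not. They were lost with a variance trend over hairpins (limma adjusted p 0.0525 and 0.0625), and without the 18°C ZT9 library the limma adjusted p was 0.123 against 29°C and 0.144 against 25°C. The call against 29°C was also lost without the 18°C ZT3 or ZT21 library or the 29°C ZT3, ZT9 or ZT15 library. That against 25°C was also lost without the 18°C ZT3 or ZT21 library, or any ZT3, ZT9 or ZT15 library of the other temperatures.

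No change over the day was called for the mir-276 arms. For an effect of time point common to the temperatures, the limma adjusted p was 0.863 for miR-276a-3p, 0.863 for miR-276b-3p and 0.922 for the shared 5p arm, and 0 of the 252 tested miRNAs passed (0% of them, with 12, or 4.76%, at an unadjusted p under 0.05). For dark (ZT15 and ZT21) against light (ZT3 and ZT9), the log2 fold changes were -0.12, -0.15 and -0.02 in the same order (limma adjusted p 0.995 each), and 0 of 235 miRNAs passed (5, or 2.13%, at an unadjusted p under 0.05). With scaling by the library total the log2 fold change of the shared 5p arm was 0.027. For a light and dark difference that changed with temperature, the adjusted p by limma was 0.790, 0.836 and 0.702, and 0 of 244 miRNAs passed (9, or 3.69%, at an unadjusted p under 0.05). Without the 18°C ZT21 library 23 miRNAs passed for time of day, and without the 29°C ZT21 library 1 did, while the limma adjusted p of the mir-276 rows stayed at 0.193 or more without any 1 library. edgeR on the recovered reads also called 0 in each of the 3 tests, and none of the 3 distinct rows had an unadjusted p under 0.05 in any of them by either tool. A rhythm at each temperature by itself was not tested.

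Across the 12 libraries the 3p arms varied together. The Pearson r of log2(value + 1) was 0.850 (Spearman rho 0.832) between miR-276a-3p and miR-276b-3p, and 0.963 after the mean of each temperature was removed. The shared 5p arm followed neither 3p arm, with r of 0.05 with miR-276a-3p and -0.28 with miR-276b-3p, and of 0.24 and 0.30 within temperatures. These r describe 12 libraries that share their size factors between rows.

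Among the 161 tested miRNAs with a mean of at least 100 reads, the pattern most like that of miR-276a-3p was that of miR-276b-3p (r 0.850), followed by miR-375-3p (0.723), miR-263b-5p (0.695), miR-184-3p (0.673) and miR-278-3p (0.665). For miR-276b-3p, the closest after miR-276a-3p were miR-278-3p (0.790), miR-10-5p (0.775), miR-990-5p (0.765) and miR-284-5p (0.738). For the shared 5p arm the closest were miR-317-5p (0.911), miR-31a-3p (0.870), miR-2b-2-5p (0.870), miR-125-3p (0.845) and miR-252-3p (0.828). All 5 of these are the less abundant arm of their own hairpin, as were 37.1% of 159 candidates. The median r of the shared 5p arm was 0.39 over 59 less abundant arms and -0.15 over 92 more abundant arms. For miR-276a-3p these medians were -0.26 and 0.12, and for miR-276b-3p -0.35 and 0.17.

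A list of miRNAs predicted to have sites in the 3′ UTR of the long tim isoform was taken from the study by name. It held 38 names, of which 33 were in the table and 20 were tested. The mir-276 3p arms held between 82.9% and 92.0% of the reads of this list in each library. Between 18°C and 29°C, 3 members were higher and 4 lower at 18°C at adjusted p under 0.05 by limma, and miR-276b-3p was among the lower, where 39.8% of all tested miRNAs passed. With the limit on the fold change, which 16% of all tested miRNAs passed, 2 were called, miR-969-3p higher at 18°C (log2 fold change 1.34, limma adjusted p 0.00698) and miR-33-5p lower (-1.24, limma adjusted p 5.44e-07). Between 18°C and 25°C, 1 was higher and 4 lower at 18°C (19.7% of all tested miRNAs passed), and between 29°C and 25°C 1 was higher and 0 lower at 29°C (11.9% of all passed). The median log2 fold change of the list was -0.17, -0.15 and -0.07 in the 3 comparisons, beside 0.03, 0.03 and -0.02 over all tested miRNAs. A second list held 9 miRNAs with a known role in the fly clock or its output, all tested. None of them was called with the limit on the fold change. Of all tested miRNAs, 16% (18°C against 29°C), 4.1% (18°C against 25°C) and 3.28% (29°C against 25°C) passed that limit. At adjusted p alone 1 of the 9 passed between 18°C and 29°C, miR-124-3p (log2 fold change 0.72, limma adjusted p 0.0390). Another passed between 29°C and 25°C, miR-92a-3p (0.84, limma adjusted p 0.0194), and none between 18°C and 25°C, where 39.8%, 11.9% and 19.7% of all tested miRNAs passed in the same order.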

How the data were processed

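Small RNAs of AGO1 immunoprecipitates from fly heads were measured in 12 libraries. The authors assigned reads to mature miRNAs of miRBase 21 with miRExpress, whose version, read trimming and treatment of mismatches are not given in the sources used here. The deposited signal is reads divided by 1 size factor per library (0.392 to 1.52), since multiplying back by that factor gave whole reads, to a tolerance of 0.01, for 100% of 4896 values (largest distance 0.000454). The factor keeps proportions within a library. Of 408 rows, 5 that repeated another in all libraries (at least 10 reads) were kept once, which left 403.

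Levels were tested with limma 3.58.1 in R 4.3.3 on log2(value + 1), a pseudocount of 1 that understates changes of rare miRNAs, after filterByExpr. All 12 libraries were fitted with temperature as the group and the time points as replicates, as the authors did, eBayes used trend and robust estimation, and Benjamini-Hochberg adjustment ran over all tested rows. Fold changes are on that scale. A miRNA was called at an adjusted p under 0.05, with and without an absolute log2 fold change over 1. Arm ratios were log2((5p reads + 0.5)/(3p reads + 0.5)), fitted with robust eBayes. Time of day, dark against light and its change with temperature were fitted with temperature as covariate. Single ratios and shares were compared by exact permutation of libraries (scipy 1.17.1). The count test, edgeR 4.0.16 with TMM factors on the recovered reads, called 38, 12 and 9 miRNAs (18°C against 29°C, 18°C against 25°C, 29°C against 25°C), and DESeq2 1.42.0 called 36, 8 and 8. The steps were tested on simulated data. Hairpin positions came from Ensembl 115 (BDGP6.54).

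The libraries differ in time point and nothing says that they came from separate cultures, so p-values measure the spread between these samples. Reads carried no molecular identifiers, so intervals cover counting error only. No 2 libraries of a temperature were copies of each other (lowest chi-square per degree of freedom 257). The miRNAs named were all mir-276 rows, the 5 closest in pattern to each, the 5 with most reads, and list members that passed a test, and miR-31 and miR-92 pairs, which were singled out after their values were seen. The members, lists and tests were chosen with earlier results of these data known. The variance trend over hairpins, the omission of the ZT21 libraries and the scaling to miR-276a-3p were added after seeing the data.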

Additional observations from a re-analysis of the deposited data

Results flagged for a closer look

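In a search of 24 groups of 4 libraries (8 mir-276 quantities at 3 temperatures), 1 library stood apart from the rest of its group, where chance gives about 1.2. The shared 5p arm had a value of 1566 in the 25°C ZT21 library, and the other 25°C libraries lay between 1290 and 1308. The gap was 0.933 of the range of the group, above Dixon's critical value for 4 samples at the 95% level. In that library miR-276a-3p and miR-276b-3p were at their lowest for 25°C.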

How the results depend on the processing

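Of the 837 values recomputed under another setting, 768 kept their direction and their side of the threshold, or for a count stayed within 1.5 times. The cause of the changes below was not tested. Calls at a mean of at least 100 reads numbered 18 (18°C against 29°C), 4 (18°C against 25°C) and 1 (29°C against 25°C), at adjusted p alone 97, 48 and 29, and with a pseudocount of 10 there were 6 in the second comparison and 2 in the third. Leaving out 1 library gave 5 to 10 calls between 29°C and 25°C, 19 to 33 there at adjusted p alone, 10 to 31 arm ratios between 18°C and 25°C, 9 to 16 between 29°C and 25°C, and 0 to 23 miRNAs for time of day.

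For the shared 5p arm, the log2 fold change between 18°C and 25°C was 0.53 with no filter (limma adjusted p 0.0624) and 0.46 with TMM scaling (0.0596), and it ran from 0.38 to 0.67 without 1 library. Between 18°C and 29°C it was 0.55 without the ZT21 libraries, and dark against light it was 0.027 with scaling by the library total and ran from -0.11 to 0.092 without 1 library. For miR-276b-3p, 18°C against 25°C passed with scaling by the library total (-0.30, limma adjusted p 0.0418) and with TMM scaling (-0.42, 0.0292), and ran from -0.43 to -0.22 without 1 library. Against 29°C it ran from -0.48 to -0.29, and between 29°C and 25°C it was -0.018 without the ZT21 libraries and ran from -0.0054 to 0.14. Scaling by the library total moved the median of all miRNAs between 18°C and 29°C from 0.03 to 0.13. For miR-276a-3p, 18°C against 25°C ran from -0.15 to 0.063. The mir-276a arm ratio ran from 0.40 to 0.63 (18°C against 29°C), 0.45 to 0.75 (18°C against 25°C) and -0.047 to 0.22 (29°C against 25°C). It was 0.53 and 0.59 with a variance trend (limma adjusted p 0.0525 and 0.0625), and 0.59 with only the compared libraries (0.0540).

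Leaving out 1 library, the paralog log2 ratio ran from -0.21 to -0.15 (18°C against 29°C) and -0.31 to -0.27 (18°C against 25°C). The log2 ratio of 5p to summed 3p ran from 0.42 to 0.65, 0.49 to 0.79 and -0.032 to 0.23 in the 3 comparisons, and the share of library reads from -3.93 to -1.87, -1.47 to 0.68 and 1.81 to 3.13 points. Without the 25°C ZT21 library 6 of these 9 exact tests had an adjusted p of 0.0429. Those between 18°C and 29°C use no 25°C library, so their exact permutation p stayed at 0.0286 and only the adjustment changed.

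The time points did not pair the libraries. Deviations from the temperature means correlated with r from -0.46 to 0.44 (median -0.08) in 12 pairs of the same time point, and 4 exceeded 0.1. In 36 pairs of other time points r ran from -0.59 to 0.64 (median 0.02), and 16 exceeded 0.1. With time point as a replicate block the calls were 39, 10 and 7, and the shared 5p arm between 18°C and 25°C had a log2 fold change of 0.53 with a limma adjusted p of 0.0659. No other mir-276 call changed under the block.

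Depth limits the 5p arm most, with 803 reads in the shallowest case.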
